A study of Mus musculus with 9 samples.

Results

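The subject is the keratin set of the epidermis between hair follicles, in neck skin of mice with allergic contact dermatitis and of control mice. The set was named gene by gene: the basal keratins Krt5, Krt14 and Krt15, the suprabasal keratins Krt1, Krt10, Krt2 and Krt77, and the stress keratins Krt6a, Krt16 and Krt17. A keratin was measured where a transcript cluster, the array's unit for 1 gene, carried that gene symbol alone in the platform annotation. This gave 9 of the 10 keratins, out of 30142 genes measured in all, and each of the 9 had 1 such cluster. Krt6a had none, because its cluster is annotated to Krt6a and Krt6b jointly.

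The samples were total RNA of whole skin from male C57BL/6 mice aged 6 to 8 weeks, on 9 Affymetrix arrays, 3 per group and 1 sample per array. Urushiol skin came from mice sensitised on the shaved abdomen with 2.0% urushiol, the oily allergen of poison ivy, and challenged 5 days later, for a total of 5 times, the last on day 8 from the first challenge, with 40 µl of 0.5% urushiol in acetone on the shaved nape. Oxazolone skin came from mice given oxazolone, a synthetic hapten, at the same concentrations and times, and skin of both was taken 4 hours after the last challenge. Control skin was labelled healthy, and the protocol text describes shaving and acetone painting for mice given an allergen, with nothing on control mice, so such handling and the allergens cannot be told apart. Replicates are labelled biological, with no word on pooling of mice or on shared cages. Values are log2 expression values, and ± after a difference is its standard error from a fit with n = 3 arrays per group.

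Keratins form the intermediate filaments of keratinocytes, and each filament is built from pairs of a type II and a type I keratin. Dividing cells of the basal layer make the pair Krt5 and Krt14, and cells that leave it switch to the pair Krt1 and Krt10. After wounding or inflammation, keratinocytes switch on Krt6 with Krt16 and Krt17, which are otherwise largely confined to hair follicles, nails and palmar or plantar skin. These keratins are therefore in common use as markers of epidermal layer and of epidermal activation.

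The promoter windows of Krt77 and Krt10 are shown because these suprabasal genes went separate ways in challenged skin: Krt77 had the deepest fall of all 9 keratins, and Krt10 did not pass the test. The windows run from 250 bases before to 50 after the RefSeq start, on the minus strand of GRCm38.p6, at chr15:101869656-101869955 for Krt77 and chr11:99389315-99389614 for Krt10, 5′ to 3′, and capitals mark the letters TATAAA.
Krt77: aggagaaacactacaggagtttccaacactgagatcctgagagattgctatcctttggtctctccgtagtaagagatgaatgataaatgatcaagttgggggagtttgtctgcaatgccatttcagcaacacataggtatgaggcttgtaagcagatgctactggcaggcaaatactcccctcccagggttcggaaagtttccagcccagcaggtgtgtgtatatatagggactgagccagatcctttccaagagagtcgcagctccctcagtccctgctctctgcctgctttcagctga
Krt10: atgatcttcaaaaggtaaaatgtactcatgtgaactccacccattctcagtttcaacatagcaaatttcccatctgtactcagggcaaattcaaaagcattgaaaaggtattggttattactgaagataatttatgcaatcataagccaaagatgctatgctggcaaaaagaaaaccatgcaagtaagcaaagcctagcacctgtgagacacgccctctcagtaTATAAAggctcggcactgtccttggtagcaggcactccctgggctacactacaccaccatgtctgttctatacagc
RefSeq windows were found for 5 of the 10 keratins (Krt5, Krt14, Krt10, Krt2 and Krt77), and they were searched on both strands. TATAAA, the plain form of the TATA box, occurred in 1 of them, Krt10, 26 bases before the start, and in 13.6% of all 32851 windows. Other forms of the TATA box were not searched, and the Krt77 window holds the letters tatatata. A window without TATAAA is therefore not shown to lack a TATA box. The AP-1 letters TGANTCA occurred in 0 of the 5 and in 7.81% of all windows, and the STAT letters TTCNNNGAA in 0 of the 5 and in 8.3% of all. The Krt10 start used here lies 8085 bases inside the outermost end annotated for the gene, and the Krt77 start lies 1 base from it. For Krt14, Krt2 and Krt5 the distance is 1480, 787 and 0 bases. Which start is used in skin was not tested, so these counts hold only for the windows searched.

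Of the control arrays, number 3 differed most from its group. Across genes, which are no independent replicates, its correlation was 0.979 with control array 1 and 0.978 with control array 2, while that between arrays 1 and 2 was 0.995. Its mean over 17 of 20 hair follicle markers was 11.41 (log2), against 6.19 and 6.36 on control arrays 1 and 2. Of the 17, 12 are keratins of hair and its sheath, none of them among the 9, and the other 5 genes averaged 10.08 on control array 3, against 6.27 and 6.62 on control arrays 1 and 2. The scale of the file ends at 19.93, above the log2 limit of a 16-bit scanner, by a step that no source used here gives, and a difference of 1 may therefore not stand for a doubling of RNA. The highest value of any of the 9 keratins was 19.32, so none was at the end of the scale. Whether differences are compressed near that end was not tested, and this limit holds for every keratin at high values: Krt5 and Krt10 on all arrays, and Krt16, Krt14 and Krt1 on the challenged arrays. In whole skin, fewer cells of a type and less RNA per cell cannot be told apart.

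Against control skin, the same 6 keratins passed the test with both allergens, 4 higher and 2 lower. Krt16, Krt14, Krt17 and Krt1 rose, Krt77 and Krt15 fell, and Krt5, Krt10 and Krt2 did not pass. The test was limma over all 30142 genes with Benjamini-Hochberg adjustment at 0.05. It called 9.96% of all genes higher and 6.43% lower in urushiol against control skin, and 9.63% higher and 6.92% lower in oxazolone against control skin. After quantile renormalisation those shares became 7.62% and 7.77% with urushiol and 7.06% and 9.74% with oxazolone, and the 6 keratin calls and their directions remained. With the mean of hair follicle markers as a covariate, the 6 calls with urushiol remained, whereas 4 of the 6 with oxazolone were lost: Krt1 (adjusted p = 0.102), Krt14 (0.0634), Krt17 (0.0924) and Krt77 (0.0692). That covariate also cut the calls over all genes, from 4942 to 2460 with urushiol and from 4989 to 756 with oxazolone. The median difference of the 9 keratins was 0.89 with urushiol and 0.48 with oxazolone, beside 0.04 and 0.06 over all genes. Arrays did not overlap between urushiol and control skin for 7 of the 9 keratins, beside 32.9% of all genes, and between oxazolone and control skin for 6 of the 9, beside 32.8%. Both comparisons share the control arrays.

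**Figure D1:**
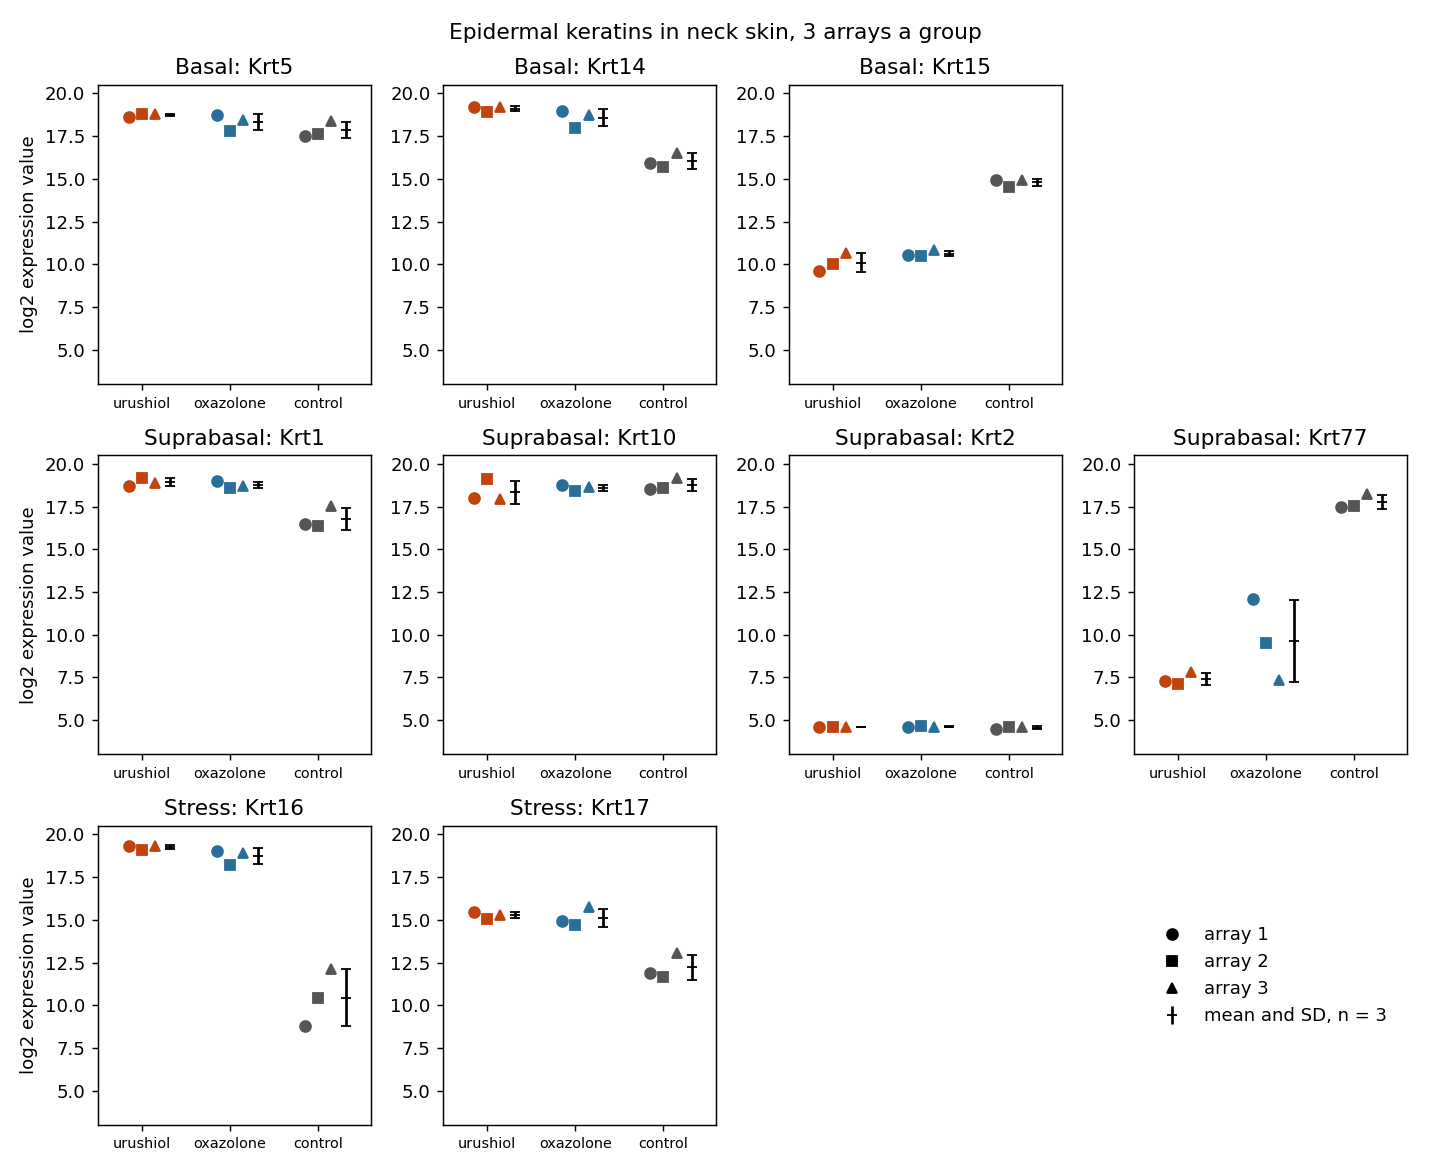
Log2 expression value (y axis) of each measured keratin on each array (symbols) in urushiol, oxazolone and control skin (x axis), with the mean and SD of 3 arrays beside them. Krt16, Krt17, Krt14 and Krt1 lie higher on all 6 challenged arrays than on any control array, Krt15 and Krt77 lie lower on all 6, and Krt2 stays at 4.49 to 4.64 throughout.

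Among the stress keratins, Krt16 had the largest rise of all 9 keratins. Krt16, a type I keratin that pairs with Krt6 in activated epidermis, had values of 19.32, 19.11 and 19.32 in urushiol skin, 19.06, 18.23 and 18.93 in oxazolone skin, and 8.78, 10.41 and 12.11 in control skin. Every challenged array lay above every control array, and the lowest urushiol and oxazolone arrays exceeded the highest control array by 7.0 and 6.12. The controls themselves were spread widely, with an SD of 1.67, against 0.12 in urushiol and 0.45 in oxazolone skin (n = 3 each). Krt16 rose by 8.82 ± 0.75 with urushiol (adjusted p = 0.00109) and by 8.31 ± 0.75 with oxazolone (adjusted p = 0.00138). Without control array 3, which was the highest control, the rises were 9.65 with urushiol and 9.14 with oxazolone.

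Krt17, a type I stress keratin that is also made in hair follicles, stood at 15.45, 15.08 and 15.31 in urushiol skin, 14.93, 14.71 and 15.73 in oxazolone skin, and 11.90, 11.68 and 13.07 in control skin. Groups did not overlap between challenged and control skin, and the urushiol and oxazolone arrays were intermingled. Krt17 rose by 3.06 ± 0.41 with urushiol (adjusted p = 0.00471) and by 2.91 ± 0.41 with oxazolone (adjusted p = 0.00585). As with Krt16, control array 3 was the highest control, by 1.28 over the mean of the other controls.

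The basal keratins split, with Krt14 higher, Krt15 lower and Krt5 between them. Krt14, the type I keratin of the basal layer, had values of 19.22, 18.93 and 19.19 in urushiol skin, 18.96, 18.00 and 18.75 in oxazolone skin, and 15.91, 15.68 and 16.54 in control skin. All 6 challenged arrays lay above the controls, and the rise was 3.07 ± 0.30 with urushiol (adjusted p = 0.00162) and 2.53 ± 0.30 with oxazolone (adjusted p = 0.00336).

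Krt5, the type II partner of Krt14, had values of 18.64, 18.79 and 18.78 in urushiol skin, 18.72, 17.80 and 18.47 in oxazolone skin, and 17.52, 17.64 and 18.39 in control skin. The urushiol arrays lay above the controls by as little as 0.25, whereas the oxazolone arrays overlapped them. The difference was 0.89 ± 0.29 with urushiol (95% confidence interval 0.20 to 1.57, adjusted p = 0.0828) and 0.48 ± 0.29 with oxazolone (interval -0.21 to 1.17, adjusted p = 0.292). Krt5 was called in urushiol skin without control array 3, at 1.16 (adjusted p = 0.0194), and after genes of low mean were filtered out (adjusted p = 0.0444).

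Krt15, a basal keratin best known as a marker of the hair follicle bulge, went the other way. It had values of 9.59, 10.01 and 10.69 in urushiol skin, 10.57, 10.51 and 10.81 in oxazolone skin, and 14.91, 14.54 and 14.94 in control skin. The gap between the lowest control array and the highest challenged array was 3.85 for urushiol and 3.73 for oxazolone, far above the SDs of 0.56, 0.16 and 0.22 in urushiol, oxazolone and control skin. Krt15 fell by 4.70 ± 0.27 with urushiol (adjusted p = 0.000339) and fell by 4.17 ± 0.27 with oxazolone (adjusted p = 0.000482), the lowest adjusted p of the 9 keratins in each comparison. For Krt15, control array 3 lay 0.21 above the mean of the other controls, against 2.52 for Krt16.

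The suprabasal keratins split in the same manner, with Krt1 higher and Krt77 lower. Krt1, the type II keratin of the spinous layer, had values of 18.73, 19.18 and 18.86 in urushiol skin, 18.98, 18.62 and 18.73 in oxazolone skin, and 16.47, 16.39 and 17.54 in control skin. Its groups did not overlap between challenged and control skin, and it rose by 2.12 ± 0.31 with urushiol (adjusted p = 0.00625) and by 1.98 ± 0.31 with oxazolone (adjusted p = 0.0084). Krt10, its type I partner, had values of 17.99, 19.11 and 17.93 in urushiol skin, 18.76, 18.41 and 18.63 in oxazolone skin, and 18.51, 18.61 and 19.16 in control skin. All 3 groups overlapped for Krt10, and the highest array of all 9 was control array 3.

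For Krt10 the difference was -0.42 ± 0.33 with urushiol (95% confidence interval -1.20 to 0.37, adjusted p = 0.449) and -0.16 ± 0.33 with oxazolone (interval -0.95 to 0.63, adjusted p = 0.772). Neither interval reaches the rise of Krt1. Krt10 and Krt5 lay at 17.52 or above on all 9 arrays. Krt2, a type II keratin of the upper layers of some skin sites, was between 4.49 and 4.64 on all 9 arrays, below the median of all clusters of any array (5.53 to 5.64). The file holds no detection calls, so whether Krt2 was detected cannot be said, and its differences of 0.06 ± 0.04 with either allergen did not pass (adjusted p = 0.382 with urushiol and 0.333 with oxazolone).

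Krt77, a type II keratin closely related to Krt1, had the deepest fall of the 9 keratins. Its values were 7.32, 7.09 and 7.81 in urushiol skin, 12.08, 9.52 and 7.33 in oxazolone skin, and 17.49, 17.54 and 18.24 in control skin. Urushiol arrays were close together, with an SD of 0.37, whereas oxazolone arrays had an SD of 2.38, and all 6 were below every control. The gap from the lowest control to the highest challenged array was 9.68 with urushiol and 5.41 with oxazolone. Krt77 fell by 10.35 ± 1.05 with urushiol (adjusted p = 0.0019) and fell by 8.11 ± 1.05 with oxazolone (adjusted p = 0.0045).

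**Figure D2:**
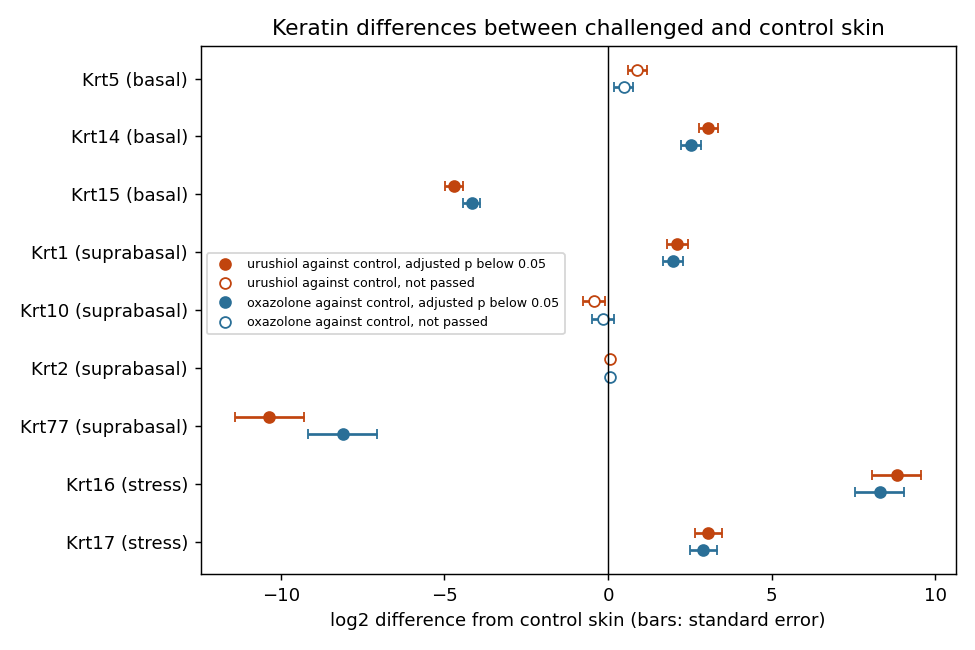
Log2 difference of each keratin (y axis) in urushiol and oxazolone skin from control skin (x axis), with bars for the standard error; filled points have an adjusted p below 0.05. Krt16 lies at 8.82 and 8.31 and Krt77 at -10.35 and -8.11. The points of both allergens have the same sign for every keratin and lie farthest apart for Krt77.

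The log2 values of partner keratins changed unequally within the same arrays. The offset between 2 clusters has no meaning of its own, so only its change between groups is compared. Krt5 minus Krt14 was -0.58, -0.14 and -0.41 on the urushiol arrays, -0.24, -0.20 and -0.28 on the oxazolone arrays, and 1.61, 1.96 and 1.85 on the control arrays. The mean of Krt5 minus Krt14 thus changed by -2.18 with urushiol and -2.05 with oxazolone. Krt1 minus Krt10 was 0.74, 0.07 and 0.93 on the urushiol arrays, 0.22, 0.21 and 0.10 on the oxazolone arrays, and -2.04, -2.22 and -1.62 on the control arrays, a change of 2.54 and 2.14. In the basal pair the value of the type I partner gained on that of the type II partner, and in the suprabasal pair the reverse held. In each pair the partner that gained was the lower one in control skin, and all 4 averaged 18.33 or more in challenged skin, where compression of the scale was not tested, so a change in the proportion of the RNAs cannot be told apart from it. For both pairs challenged and control arrays did not overlap, and the exact two-sided permutation test gave p = 0.1 for each of these 4 changes, the smallest p that 3 arrays against 3 can give. Control array 3 lay within the range of the other controls for Krt5 minus Krt14, and above it for Krt1 minus Krt10.

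**Figure D3:**
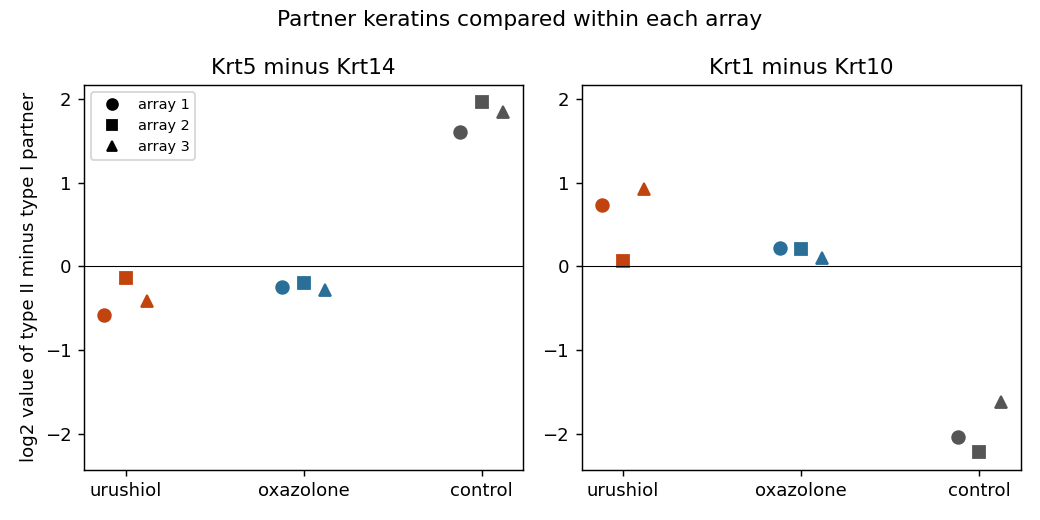
Log2 value of the type II keratin minus its type I partner within each array (y axis), for Krt5 with Krt14 and Krt1 with Krt10, by group (x axis) and array (symbols). All 6 challenged arrays lie between -0.58 and -0.14 for Krt5 minus Krt14, where controls lie between 1.61 and 1.96, and between 0.07 and 0.93 for Krt1 minus Krt10, where controls lie between -2.22 and -1.62.

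Between urushiol and oxazolone skin, none of the 9 keratins passed the test by limma. Of all genes 0.0166% were called in this comparison, 5 of 30142, and 1772 genes and 0 of the 9 keratins had an unadjusted p under 0.05. The widest difference was that of Krt77, at -2.24 ± 1.05 for urushiol minus oxazolone (95% confidence interval -4.72 to 0.24, adjusted p = 0.915), and the urushiol and oxazolone arrays overlapped. It was -1.02 without oxazolone array 1 and -3.39 without oxazolone array 3. Krt15 stood at -0.53 ± 0.27 (interval -1.16 to 0.10), Krt14 at 0.54 ± 0.30 (interval -0.16 to 1.25) and Krt5 at 0.41 ± 0.29 (interval -0.28 to 1.09). Krt16 had arrays that did not overlap, with urushiol higher, as did 9.74% of all genes, and its difference of 0.51 ± 0.75 had an interval of -1.24 to 2.26. Without oxazolone array 2 the difference was 0.14 for Krt5, 0.26 for Krt14 and 0.26 for Krt16. No label pairs arrays of the same replicate number. Between such arrays, urushiol minus oxazolone had 1 sign for Krt15 (-0.98, -0.50 and -0.12), Krt14 (0.26, 0.93 and 0.44) and Krt16 (0.26, 0.88 and 0.39). None of these was called with the number as a block over the 6 challenged arrays, at adjusted p = 0.616 for Krt15, 0.548 for Krt14 and 0.55 for Krt16 by limma. The intervals leave room for differences of over 1 log2 unit in Krt14, Krt15, Krt5, Krt10, Krt16, Krt17 and Krt77, so the data do not show that the allergens act alike.

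Hair follicle markers were higher on control array 3 and on the challenged arrays than on control arrays 1 and 2. Of the 17 measured, 0 passed the test in either comparison with control. All-gene shares were 9.96% higher and 6.43% lower with urushiol, and 9.63% and 6.92% with oxazolone. The median difference of the 17 was 2.5 with urushiol and 4.18 with oxazolone, so not passing does not show that they were unchanged. Their mean ran from 10.44 to 11.10 on urushiol arrays, from 10.95 to 13.69 on oxazolone arrays and from 6.19 to 11.41 on control arrays. Control array 3, at 11.41, thus lay above all 3 urushiol arrays on this list. It also lay above oxazolone array 1 (10.95), but below oxazolone arrays 2 (13.69) and 3 (11.84). On control array 3 Krt16 was 12.11, which is 7.0 below the lowest urushiol array and 6.12 below the lowest oxazolone array. Krt14 was 16.54 there, 2.39 and 1.46 below them. Krt77 was 18.24 on control array 3, 10.43 above the highest urushiol array and 6.16 above the highest oxazolone array. Krt15 was 14.94 there, 4.25 and 4.13 above them.

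Without control array 3 the 6 keratin calls were kept in both comparisons. With the hair follicle mean as a covariate, all 6 were kept in urushiol against control skin, with Krt16 at 7.91 and Krt77 at -10.33. In oxazolone against control skin that covariate left Krt16 (6.88, adjusted p = 0.0241) and Krt15 (-4.26, adjusted p = 0.0124) called. Krt1 (1.31), Krt14 (2.33), Krt17 (2.21) and Krt77 (-8.09) kept their direction but not their call. Without the covariate Krt77 stood at -8.11. Calls over all genes fell with the covariate as well, from 4989 to 756 with oxazolone and from 4942 to 2460 with urushiol. A lost call is therefore not particular to these keratins. The part of follicle content in the keratin differences was not tested beyond these values.

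**Figure D4:**
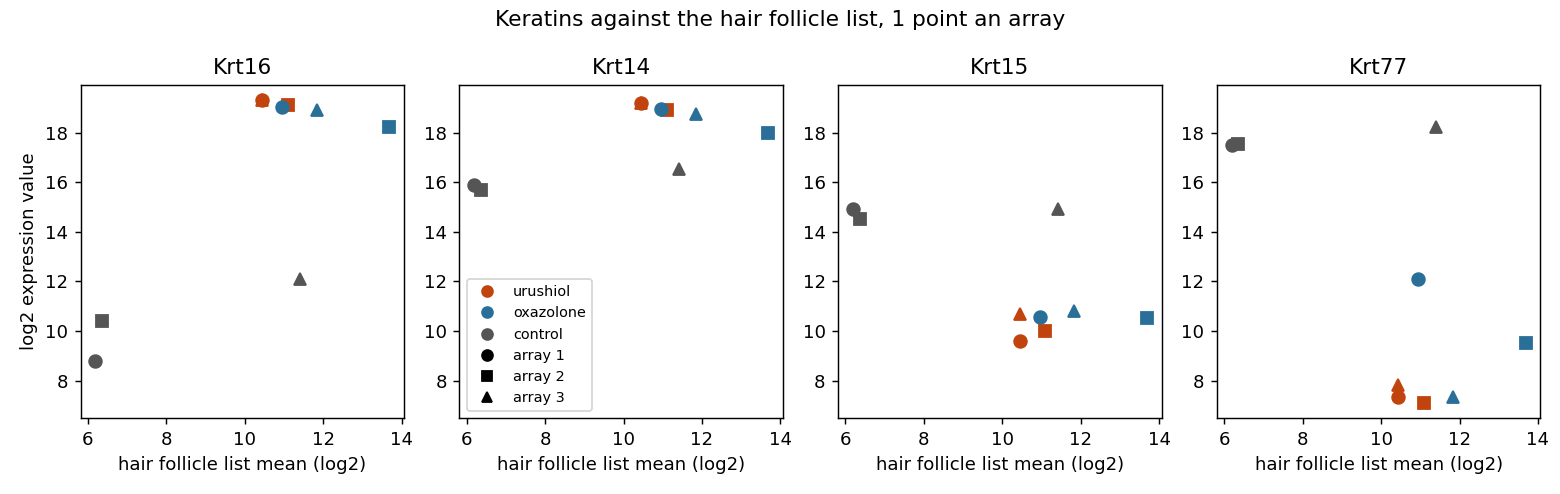
Log2 value of Krt16, Krt14, Krt15 and Krt77 (y axes) against the mean of 17 hair follicle markers (x axis), 1 point per array; urushiol arrays 1 and 3 nearly coincide. Control array 3 lies at 11.41 on the x axis, among the challenged arrays, but with the other controls on the y axis or nearer to them.

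The genes whose profiles over the 9 arrays were most like those of Krt14, Krt77 and Krt16 were found by the root mean square difference between profiles, each centred on its own mean, so their likeness on these arrays is what chose them. For Krt16 they were Cstdc6 (0.22 log2 units), Gsdmc (0.348) and Stfa1 (0.381), which encode cysteine protease inhibitors of the stefin group and, for Gsdmc, a gasdermin. Cstdc6 had values of 17.78, 17.21 and 17.47 in urushiol skin, 17.36, 16.43 and 17.42 in oxazolone skin, and 6.70, 8.34 and 9.95 in control skin. For Krt14 they were Hif1a (0.204), which encodes the oxygen-sensing factor HIF-1 alpha, the calmodulin relative Calm4 (0.219) and the tubulin gene Tubb6 (0.234). For Krt77 they were Skint5 (1.221) and Skint6 (1.772), of a mouse family made in skin and thymus, and the Mas-related receptor gene Mrgprb3 (1.814). Skint5 had values of 5.85, 5.53 and 5.79 in urushiol skin, 7.82, 6.95 and 5.17 in oxazolone skin, and 13.55, 13.34 and 13.44 in control skin. Among the 9 measured keratins alone, the nearest was Krt17 for both Krt16 (2.699) and Krt14 (0.34), and Krt15 for Krt77 (2.654). A search of far more genes finds nearer ones, and the measure also depends on the size of a change. These distances therefore do not rank the keratins against the other genes.

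Among other keratins of non-hair epithelium, skin included, 11 of 15 did not pass the test in each comparison with control skin. Of 15 measured keratins in a list of 16, 1 was higher and 3 were lower in urushiol against control skin, and 2 were higher and 2 lower in oxazolone against control skin, with list medians of 0.08 and 0.04. Over all genes 9.96% were higher and 6.43% lower with urushiol, and 9.63% higher and 6.92% lower with oxazolone, so 1 or 2 of 15 is close to that background. The 3 of 15 lower with urushiol lie above the 6.43%, but this count became 0 or 1 without some single arrays, as given below. Krt80, a type II keratin of differentiating epithelia, fell by 0.88 ± 0.23 with urushiol and fell by 1.26 ± 0.23 with oxazolone, and Krt23, a type I keratin, fell by 2.06 ± 0.53 with urushiol and fell by 1.94 ± 0.53 with oxazolone. Krt24 fell by 0.73 ± 0.16 with urushiol. Krt7, a keratin of simple epithelia, rose by 0.37 ± 0.08 and 0.49 ± 0.08 with urushiol and oxazolone, and Krt8, another, by 0.50 ± 0.13 with oxazolone. Both were low on all 9 arrays, Krt7 at 5.85 to 6.55 and Krt8 at 5.45 to 6.28, beside array medians of 5.53 to 5.64. Without detection calls, whether Krt7 and Krt8 were detected cannot be said. These calls were fragile: without single arrays, those in urushiol skin were lost in 8 of 9 cases for Krt80, 7 for Krt23, 4 for Krt24 and 5 for Krt7, and those in oxazolone skin in 3 for Krt80, 8 for Krt23 and 8 for Krt8. The Krt7 call in oxazolone skin was kept in all 9 cases. Calls over all genes also changed without single arrays, from 4942 to between 2189 and 7655 with urushiol. With oxazolone they went from 4989 to between 2107 and 8019, so such losses were not confined to these keratins. In urushiol skin the higher count became 0 without control array 1 or 2 or any 1 urushiol array and 3 without control array 3, and the lower count 0 without control array 1 or 2 or urushiol array 2 or 3 and 1 without control array 3 or oxazolone array 2. In oxazolone skin the higher count became 3 without control array 3 and 1 without any other single array, and the lower count 0 without control array 2 or oxazolone array 1 or 2, 1 without control array 1 or 3, oxazolone array 3 or urushiol array 2 or 3, and 3 without urushiol array 1.

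Genes that anchor keratin filaments moved both ways. Of 24 anchors and partners, all measured, 11 were higher and 3 lower in urushiol against control skin, and 4 were higher and 4 lower in oxazolone against control skin, with list medians of 0.71 and 0.43. All-gene shares were 9.96% higher and 6.43% lower with urushiol, and 9.63% and 6.92% with oxazolone. The desmosomal cadherin genes Dsc2 and Dsg3 had the largest rises of the list: Dsc2, for desmocollin 2, rose by 4.53 ± 0.37 with urushiol and 3.97 ± 0.37 with oxazolone, and Dsg3, for the desmoglein of lower epidermal layers, by 3.35 ± 0.31 and 2.93 ± 0.31. Of the other desmosomal cadherins, 3 did not pass with oxazolone, named here after their values were seen: Dsg1a at 0.02 (adjusted p = 0.957), Dsg1b at 0.45 (adjusted p = 0.187) and Dsc3 at 0.57 (adjusted p = 0.0798). Flg, for filaggrin, which bundles keratin filaments in the cornified layer, rose by 2.87 ± 0.73 with urushiol (adjusted p = 0.0391) and stood at 2.41 ± 0.73 with oxazolone (adjusted p = 0.063). Its relative Flg2 fell by 4.18 ± 0.36 with urushiol and fell by 3.78 ± 0.36 with oxazolone. Dst, which in basal keratinocytes encodes a plakin that ties keratin filaments to hemidesmosomes, fell by 2.53 ± 0.35 with urushiol and fell by 2.31 ± 0.35 with oxazolone. On control array 3 Dst lay 1.13 below the mean of the other controls. Skeletal muscle markers averaged 16.30 on that array, against 18.30 and 18.21 on control arrays 1 and 2. Which cells of whole skin the fall of Dst comes from was not tested.

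The higher count among anchors in urushiol skin became 4 without control array 1, 5 without control array 2 and 15 without control array 3. It became 7 without urushiol array 2 and 5 without either of the other urushiol arrays. In oxazolone skin the higher count became 12 without control array 3, and the lower count 2 without any 1 of the 3 oxazolone arrays. Calls over all genes shifted too. With urushiol they went from 4942 to 2328, 2217 and 7655 without control arrays 1, 2 and 3. Without 1 urushiol array they numbered 2189 to 3134. With oxazolone they went from 4989 to 8019 without control array 3, and to between 2460 and 2831 without 1 oxazolone array. The Flg call in urushiol skin was lost in 8 of 9 cases when single arrays were left out. The calls of Dsc2, Dsg3, Flg2 and, in oxazolone skin, Dst were kept in all 9. Between urushiol and oxazolone skin 0 of the 24 were called by limma.

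**Figure D5:**
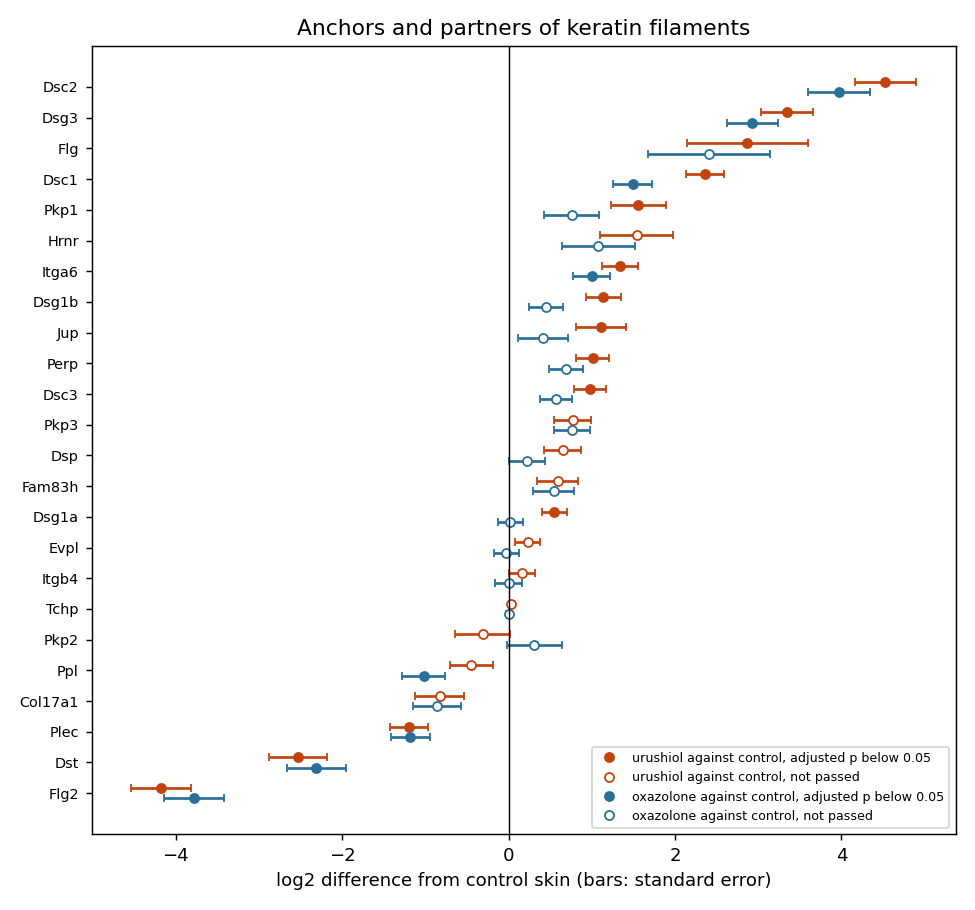
Log2 difference of 24 anchors and partners of keratin filaments (y axis) in urushiol and oxazolone skin from control skin (x axis), with bars for the standard error; filled points have an adjusted p below 0.05. Dsc2 (4.53 and 3.97) and Dsg3 (3.35 and 2.93) lie at the top, and Dst (-2.53 and -2.31) and Flg2 (-4.18 and -3.78) at the bottom.

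Of 18 measured epidermal transcription regulators in a list of 21, 5 were higher and 1 lower with each allergen against control skin, with medians of 0.62 with urushiol and 0.51 with oxazolone. The lower count, 1 of 18, is close to the 6.43% of all genes called lower with urushiol and the 6.92% with oxazolone, and the higher count stands beside 9.96% and 9.63%. Grhl3, a factor for terminal differentiation, rose by 2.67 ± 0.32 and 1.80 ± 0.32 with urushiol and oxazolone, Ovol1, which restrains proliferation in differentiating cells, by 2.33 ± 0.32 and 1.54 ± 0.32, and Nfe2l2, which encodes the stress factor NRF2, by 1.53 ± 0.13 and 0.96 ± 0.13. Zfp750 rose by 1.5 ± 0.33 with urushiol. Pou2f3, a factor of suprabasal keratinocytes, fell by 1.18 ± 0.26 with urushiol and fell by 2.13 ± 0.26 with oxazolone. Higher counts became 9 with each allergen without control array 3. With oxazolone they became 3 without control array 1 or 2 or oxazolone array 1 or 2, and 2 without oxazolone array 3. The lower count with urushiol became 0 without control array 2 or urushiol array 1 or 3. Calls over all genes moved as well. Without control array 3 they rose from 4942 to 7655 with urushiol and from 4989 to 8019 with oxazolone. Without the other arrays named they fell to between 2189 and 2429 with urushiol and between 2107 and 2831 with oxazolone. The calls of Zfp750 in urushiol skin and Ovol1 in oxazolone skin were each lost in 4 of 9 cases.

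Called markers of cell types stand beside all-gene shares of 9.96% higher and 6.43% lower with urushiol, and 9.63% and 6.92% with oxazolone. In lists of 5 to 7 genes, a count of 1 cannot be set apart from those shares. Markers of keratinocytes outside the keratin set were summed up in the same way. Their mean over 7 genes ran from 14.74 to 14.93 on urushiol arrays, from 14.53 to 14.94 on oxazolone arrays and from 13.22 to 14.15 on control arrays, with control array 3 the highest control. Of the 7, Sfn, Lgals7 and Perp, which the anchor list also holds, rose with urushiol, and Sfn and Lgals7 rose with oxazolone, Sfn by 3.37 ± 0.39 and 2.83 ± 0.39. Cell division markers, 7 measured of 8, averaged 10.08 to 10.27 on urushiol arrays, 10.19 to 10.38 on oxazolone arrays, and 8.06 and 7.62 on control arrays 1 and 2, with control array 3 just below the challenged arrays. Of the 7, 1 was called higher with urushiol and 2 with oxazolone. Skeletal muscle markers, all 6 measured, averaged 11.64 to 12.81 on urushiol arrays, 7.34 to 9.64 on oxazolone arrays and 16.30 to 18.30 on control arrays, and all 6 fell with each allergen. Neutrophil markers averaged 10.34 to 11.33 on urushiol arrays, 10.09 to 10.37 on oxazolone arrays and 6.24 to 6.70 on control arrays. Of the 6, 4 were higher with each allergen. S100a8 rose by 10.58 with urushiol and 8.81 with oxazolone, and S100a9 by 9.98 and 8.23. Cxcr2 rose by 2.83 and 2.51 and Csf3r by 2.65 and 2.49, while Ly6g and Mpo did not pass. The shift of this mean thus rests mostly on S100a8 and S100a9, whose cell source was not tested. Fibroblast markers, 5 measured of 6, averaged 14.42 to 15.58, 14.21 to 15.28 and 15.81 to 16.10 in urushiol, oxazolone and control skin, with 3 lower with each allergen. Sebaceous gland markers, 7 measured of 8, averaged 9.18 to 10.46, 9.16 to 11.25 and 10.76 to 10.92 in urushiol, oxazolone and control skin, with 2 lower with each allergen. Adipocyte markers, all 5 measured, averaged 10.20 to 10.69, 9.89 to 10.18 and 12.00 to 12.52 in urushiol, oxazolone and control skin, with 4 lower with urushiol and 5 with oxazolone. T cell markers, all 5 measured, averaged 5.76 to 5.93 on urushiol, 5.93 to 7.04 on oxazolone and 6.24 to 6.26 on control arrays, with 1 higher and 2 lower with urushiol and 1 higher and 1 lower with oxazolone. The part of such shifts in tissue makeup in the keratin differences was not tested.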

How the data were processed

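The deposited values are log2 expression, with 1 value for every cluster on every array. Per the submitters' processing notes, Affymetrix Expression Console 1.4, RMA and the Transcriptome Analysis Console were used, with no role or order stated, and no source used here names a genome build. Of 72688 features, 6732 array controls were left out. Of 65956 clusters, 30604 had 1 gene symbol, 2146 several and 33206 none, and a repeated symbol counted as 1. Symbols of 827 clusters were updated through the gene ID to RefSeq (GRCm38.p6), and where a gene had several clusters (355 genes) the one of highest mean level stood for it.

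Groups came from the sample titles. Differences were tested in 1 fit of 9 arrays by the two-sided moderated test of limma 3.58.1 (R 4.3.3), its p-values adjusted across 30142 genes (Benjamini-Hochberg) and called at 0.05, a step tested on simulated data. Precision is limited by the number of arrays, since arrays have no read depth. Tests of partner pairs were exact permutation tests (scipy 1.17.1).

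The keratins and gene lists were chosen with earlier results of these data known. Named were all measured keratins, up to 4 called genes per list and comparison with the largest differences, and the 3 genes nearest in profile to Krt14, Krt77 and Krt16, without predicted genes. Proteins and a Krt6a with Krt16 pair, also planned, are not reported. Alternatives were quantile renormalisation, median centring, a filter on genes below the median mean, the mean of a gene's clusters, a trended variance, 2 groups alone, the replicate number as a block, the hair follicle mean as a covariate, and leaving out each array.

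Whether replicate numbers pair arrays was checked on deviations from group means. Same-numbered urushiol and oxazolone arrays correlated at 0.201, 0.197 and 0.124, and those of unlike number at -0.1803 to 0.0214. Control array 3 and oxazolone array 2, of unlike number, reached 0.2847, so values of this size do not establish pairs. Deviations also cancel out within each group, so the correlations depend on one another. No label pairs the arrays. A block over the 6 urushiol and oxazolone arrays alone was added after seeing the data, as an alternative. Same-numbered control and challenged arrays correlated at -0.2325 to 0.3369, and controls were not paired.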

Additional observations from a re-analysis of the deposited data

Results flagged for a closer look

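A signal in data that no comparison uses was that of the transcript cluster annotated to both Krt6a and Krt6b, which cannot be assigned to either gene. Its log2 values were 19.87, 19.78 and 19.87 in urushiol skin, 19.74, 19.39 and 19.74 in oxazolone skin, and 11.89, 13.43 and 14.79 in control skin. The means were 19.84 in urushiol, 19.62 in oxazolone and 13.37 in control skin, and every challenged array lay above every control array. All 6 challenged values lie close to the end of the scale at 19.93, so the size of the difference is uncertain, and it was not tested.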

How the results depend on the processing

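The 12 keratin calls against control (6 per allergen) kept their direction in all 204 recomputations and the call in 200. The 4 losses were all in oxazolone against control with the hair follicle mean as a covariate, where the higher and lower counts of keratins became 1 and 1; the cause was not tested. Leaving out single arrays gave 4 higher and 2 lower keratins in oxazolone, and 4 to 5 higher and 2 lower in urushiol, against control. Krt5 in urushiol was gained without control array 3 and with dim genes filtered out. Among uncalled differences, signs turned for Krt5 (-0.021, quantile renormalisation), Krt10 (0.04 without control array 3, -0.28 to 0.04 when single arrays were left out) and Krt2 (-0.0033 by median centring, -0.00024 with the covariate) in oxazolone against control, and in urushiol against oxazolone for Krt17 (-0.05 without oxazolone array 2, -0.05 to 0.46 when single arrays were left out) and Krt2 (0.014 by quantile renormalisation, 0.01 by median centring, 0.02 with the covariate). Krt2 was removed by the filter on dim genes.

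Genes called numbered 4989 in oxazolone against control, 2198 with 2 groups alone, 756 with the covariate and 2107 to 8019 without single arrays, highest without control array 3. In urushiol against control they numbered 4942, 2324 with 2 groups alone, 2460 with the covariate and 2189 to 7655 without single arrays. In urushiol against oxazolone they numbered 5, 0 by median centring, the trended variance, the covariate and the replicate block (9 arrays, or the 6 challenged arrays alone), 40 with dim genes filtered out, 2 with 2 groups alone and 0 to 94 without single arrays. The replicate block changed no keratin call. Counts of called members over all alternatives ran from 4 to 15 higher anchors with urushiol and 2 to 12 with oxazolone, from 4 to 9 and 1 to 9 higher regulators, and from 0 to 3 higher and 0 to 3 lower other keratins with each allergen. With the covariate the calls of Dst and Grhl3 in oxazolone skin were also lost (adjusted p = 0.0804 and 0.17), and that of Krt7 (0.147).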
